A study of Mus musculus with 16 samples.

Results

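The 32 genes described here encode enzymes that make cholesterol and proteins that sense it, take it up, move it inside the cell, esterify it and export it. They were chosen by gene name from a list of 32 symbols, and all 32 were found among the 30463 genes of the deposited table. Each was matched once, and each had an adjusted p-value. Whole liver of C57BL/6N mice, wild type and 14 weeks old, was studied by RNA sequencing. The animals had been injected with vehicle or with DEN (diethylnitrosamine, an alkylating liver carcinogen) at 2 weeks of age. At 6 weeks of age they either stayed on control diet or were moved to a diet labelled 60% high fat. Each of the 2 injections was combined with each of the 2 diets, which gave 4 groups of 4 samples, and all 16 mice shared strain, genotype and age.

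The values come from 1 comparison that the authors made and deposited. Its sides are not named in the table, so log2 fold changes above 0 are described as lying on the positive side of it, and those below 0 as lying on its negative side. Neither side can be tied here to a diet or to DEN. The 16 columns of library values carry codes that match no sample label and were not used, so no value per sample is given, and the error of each fold change is the authors' standard error (SE). Hepatocyte markers had the highest levels of the cell type markers, with Alb at a mean normalized count of 1079860 in the authors' deposited table.

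Cells make cholesterol from acetyl-CoA through mevalonate, farnesyl diphosphate, squalene and lanosterol. When the endoplasmic reticulum is low in sterol, the escort protein SCAP carries the transcription factor SREBP2 to the Golgi, where proteases release its active part, which turns on synthesis and uptake genes, and the INSIG proteins hold SCAP back when sterol is plentiful. Oxysterols, which form as cholesterol accumulates, activate the nuclear receptor LXR, which turns on the exporters ABCA1, ABCG5 and ABCG8 and the ubiquitin ligase MYLIP. In liver, ABCA1 loads cholesterol onto nascent HDL, and ABCG5 with ABCG8 secretes sterols into bile.

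Promoter sequence was compared first, since SREBP2 acts with the CCAAT-binding factor NF-Y at many synthesis genes. RefSeq promoter windows on GRCm38.p6, each 300 bases long, were found for 25 of the 32 genes. Fdps, Fdft1, Sqle, Stard4, Npc1, Scarb1 and Soat2 had no window, so their promoters were not searched. The pentamer CCAAT, searched on both strands, was present in at least 1 window of 14 of 15 synthesis genes with a window (93.3%), beside 41.1% of all 27025 genes with a window and 42.5% of the 11512 of those tested in the comparison. Acat2 was the synthesis gene without it. The box was not limited to synthesis genes, as 22 of the 25 genes held it, Mylip, Abcg5 and Abcg8 among them. The SREBP-type motif TCACNCCAC was found on either strand for 1 of the 25 genes, Hmgcs1, and for 1.44% of all genes. Its shorter form CACNCCAC, which lies inside the longer motif, was found for 3 of the 25 genes, Acat2, Hmgcs1 and Insig1. That is 2 of 15 synthesis genes with a window (13.3%), beside 7.12% of all genes and 7.71% of those tested. These matches describe letters in the windows and show no binding.

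The 250 bases before the RefSeq start are shown for the 5 synthesis genes, and for Mylip and Abca1 among the LXR-type genes, whose stretch overlapped no annotated exon. Each runs 5′ to 3′ on the strand of the gene, and capitals mark CCAAT or its reverse complement or CACNCCAC with, where present, the T before it. The stretches are chr13:119690101-119690350 (plus strand) for Hmgcs1, chr8:122443423-122443672 (minus) for Mvd, chr3:89454291-89454540 (plus) for Pmvk, chr9:42264301-42264550 (minus) for Sc5d, chrX:8193513-8193762 (minus) for Ebp, chr13:45389492-45389741 (plus) for Mylip and chr4:53159896-53160145 (minus) for Abca1.
Hmgcs1: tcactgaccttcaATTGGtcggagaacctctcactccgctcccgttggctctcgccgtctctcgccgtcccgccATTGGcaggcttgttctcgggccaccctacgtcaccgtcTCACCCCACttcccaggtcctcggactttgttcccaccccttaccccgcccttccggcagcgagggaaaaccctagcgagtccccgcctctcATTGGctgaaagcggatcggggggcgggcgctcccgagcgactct
Mvd: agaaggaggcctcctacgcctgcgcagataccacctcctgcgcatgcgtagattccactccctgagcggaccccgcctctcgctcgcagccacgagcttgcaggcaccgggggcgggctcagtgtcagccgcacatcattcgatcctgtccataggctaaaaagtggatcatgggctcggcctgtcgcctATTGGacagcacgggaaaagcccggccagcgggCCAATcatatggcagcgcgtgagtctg
Pmvk: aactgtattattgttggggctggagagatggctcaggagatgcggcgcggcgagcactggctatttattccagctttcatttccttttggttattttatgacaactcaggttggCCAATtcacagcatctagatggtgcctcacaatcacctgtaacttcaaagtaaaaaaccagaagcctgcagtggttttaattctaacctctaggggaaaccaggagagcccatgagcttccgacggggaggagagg
Sc5d: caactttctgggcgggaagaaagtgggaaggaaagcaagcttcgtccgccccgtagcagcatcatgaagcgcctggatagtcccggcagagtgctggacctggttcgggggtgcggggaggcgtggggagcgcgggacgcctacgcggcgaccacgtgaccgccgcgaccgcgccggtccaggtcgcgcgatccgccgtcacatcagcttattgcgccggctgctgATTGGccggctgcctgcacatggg
Ebp: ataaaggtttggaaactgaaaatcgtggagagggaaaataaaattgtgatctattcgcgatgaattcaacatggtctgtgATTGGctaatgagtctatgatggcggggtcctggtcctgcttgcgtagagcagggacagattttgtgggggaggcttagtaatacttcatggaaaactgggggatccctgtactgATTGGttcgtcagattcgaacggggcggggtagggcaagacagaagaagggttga
Mylip: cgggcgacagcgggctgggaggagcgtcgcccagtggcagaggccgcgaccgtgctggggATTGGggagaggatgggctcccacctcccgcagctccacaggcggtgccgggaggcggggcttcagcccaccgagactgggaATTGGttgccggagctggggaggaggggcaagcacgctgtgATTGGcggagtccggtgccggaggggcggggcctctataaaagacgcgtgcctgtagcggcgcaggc
Abca1: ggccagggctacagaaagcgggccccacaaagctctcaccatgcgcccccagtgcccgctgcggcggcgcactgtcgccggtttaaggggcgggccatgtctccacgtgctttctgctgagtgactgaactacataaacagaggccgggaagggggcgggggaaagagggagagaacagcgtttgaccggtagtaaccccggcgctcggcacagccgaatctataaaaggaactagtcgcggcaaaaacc

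Hmgcs1 held 3 CCAAT boxes, beginning 45, 176 and 237 bases before the start, and the SREBP-type motif 137 bases before it. Mvd held 2 boxes, beginning 27 and 60 bases before the start, and Ebp held 2, at 55 and 170 bases. Mylip held 3, at 67, 108 and 190 bases, and Abca1 held 0 in the stretch shown. Among these 7 genes the box occurred in genes with positive values (Hmgcs1, Mvd), near 0 (Ebp) and with a negative value (Mylip) in the comparison described next.

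Synthesis genes lay on the positive side by modest amounts, and the intervals of the export genes all included 0. Of the 18 synthesis genes, 17 had a positive log2 fold change and 1 a negative one in the authors' deposited table, with a median of 0.47 beside -0.0044 for all 16288 tested genes, of which 49.2% were positive. Few of these values passed the test gene by gene. At an adjusted p below 0.05 (the authors' p-values with Benjamini-Hochberg adjustment), 1 of the 32 genes was called positive, Fdps, and 1 negative, Npc1. Of all tested genes 3.67% were called positive, 2.90% negative and 6.57% on either side, and 3.12% of the 32 genes were called on each side, so the number of calls was near the background. At an unadjusted p below 0.05, 8 of the 18 synthesis genes (44.4%) were on the positive side and 0 on the negative, beside 9.64% and 9.41% of all tested genes. The 18 values come from the same libraries and are not independent of one another.

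**Figure D1:**
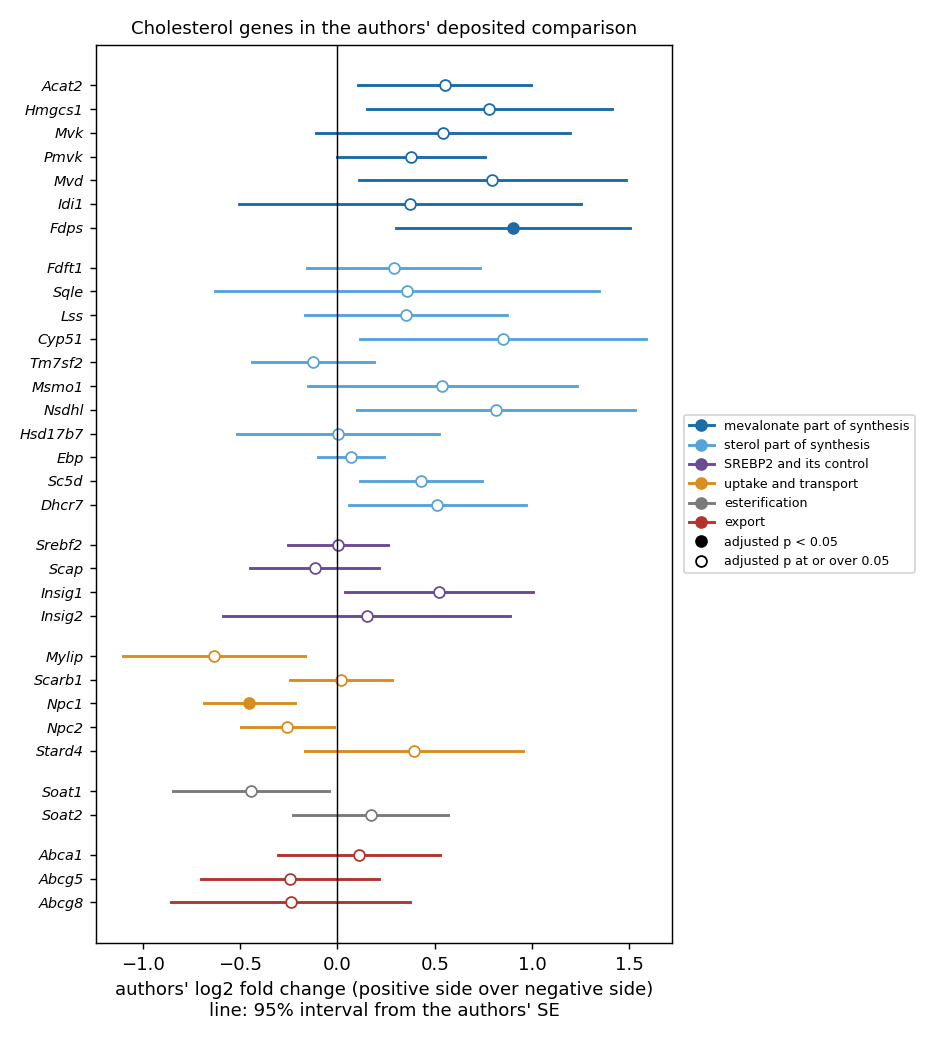
The authors' log2 fold change (x axis) of each of the 32 genes (y axis), grouped by role, with lines for 95% intervals from the authors' SE and filled points for an adjusted p below 0.05. Points of 17 of 18 synthesis genes lie right of 0, and the filled points are Fdps and Npc1.

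The first part of the pathway, from acetyl-CoA to farnesyl diphosphate, had 7 of 7 genes positive and a median log2 fold change of 0.55. Fdps, which makes farnesyl diphosphate, was at 0.90 ± 0.31 (log2 with SE, from the authors' deposited table), or 1.87-fold with a 95% interval from 1.23 to 2.84, and passed the test narrowly (adjusted p = 0.0496). The call was lost under 6 of the alternatives to the authors' adjustment, among them Benjamini-Hochberg over every gene with a p-value (adjusted p = 0.0914) and the scaled statistic (0.622). Fdps (ENSMUSG00000059743) lies on chromosome 3 from 89093588 to 89101959, minus strand, in GRCm38. Its mean normalized count was 206.8. Its transcript matched 5 other annotated genes at 95% identity or more over at least 200 bases. The closest of the 4 that do not overlap it was Gm3571 (98.9% identical over 1062 bases). Gm3571 itself had few counts (mean 3.55) and was at 1.64 ± 0.60 (log2 with SE, from the authors' deposited table). No source used here says how reads with several matches were counted, so the value of Fdps is uncertain to that extent.

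Hmgcs1, the synthase that condenses acetyl-CoA with acetoacetyl-CoA, was at 0.78 ± 0.32 (log2 with SE, adjusted p = 0.132, from the authors' deposited table) with a mean normalized count of 2190. Mvd, which decarboxylates the mevalonate diphosphate, was at 0.80 ± 0.35 (log2 with SE, adjusted p = 0.170, from the authors' deposited table). Acat2, the cytosolic thiolase that starts the pathway, was at 0.55 ± 0.23 (log2 with SE, adjusted p = 0.132, from the authors' deposited table). The intervals of these 3 genes lay above 0 before adjustment, from 0.15 to 1.41 for Hmgcs1, from 0.11 to 1.48 for Mvd and from 0.11 to 1.00 for Acat2, and none was called. Acat2 is 97.7% identical to its neighbour copy Acat3 over 1477 bases. Acat3 was at 0.31 ± 0.12 (log2 with SE, from the authors' deposited table) with a mean normalized count of 842.6, so reads of the pair may not be separable. The Acat2 transcript also matched Tcp1 in the reverse sense, 98.7% identical over 445 bases. Tcp1 was at -0.07 ± 0.07 (log2 with SE, from the authors' deposited table) with a mean normalized count of 2211. No source used here gives the strand setting of the counting.

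The kinase genes Mvk and Pmvk, which phosphorylate mevalonate in turn, were at 0.54 ± 0.33 (adjusted p = 0.385) and 0.38 ± 0.19 (adjusted p = 0.264) on the log2 scale (SE, from the authors' deposited table). Idi1, the isomerase that makes dimethylallyl diphosphate, was at 0.37 ± 0.45 (log2 with SE, adjusted p = 0.722, from the authors' deposited table). Idi1 had the fewest counts of the synthesis genes (mean normalized count 100.1), and its transcript matched 2 other annotated genes in the same sense. A stretch of 684 bases is identical to Gm13502, which had a mean normalized count of 8.99 and was at 1.02 ± 0.62 (log2 with SE, from the authors' deposited table). Gm35570, 97.7% identical over 681 bases, had a mean normalized count of 38.4 and was at -0.56 ± 0.33 (log2 with SE, from the authors' deposited table), opposite in sign to Idi1, so the value of Idi1 is uncertain to that extent. The intervals of Mvk, Pmvk and Idi1 included 0.

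The second part, from squalene synthesis to cholesterol, was more uneven, with 10 of 11 genes positive, a median log2 fold change of 0.36 and a range from -0.13 to 0.85. The highest values were those of Cyp51, the lanosterol demethylase, at 0.85 ± 0.37 (log2 with SE, adjusted p = 0.170, from the authors' deposited table) and Nsdhl, a decarboxylating sterol dehydrogenase, at 0.81 ± 0.36 (log2 with SE, adjusted p = 0.180). Sc5d, the desaturase near the end of the pathway, had a smaller difference with a smaller error, 0.43 ± 0.16 (log2 with SE, from the authors' deposited table), and came closest to the threshold of the 11 (adjusted p = 0.0822). Dhcr7, a reductase of the final steps, was at 0.51 ± 0.23 (log2 with SE, adjusted p = 0.188, from the authors' deposited table). These 4 genes had 95% intervals above 0 and were not called. Cyp51 shares 166 exon bases with Akap9 on the opposite strand, and reads of that overlap could belong to either gene. Akap9 was at -0.21 ± 0.12 (log2 with SE, from the authors' deposited table) with a mean normalized count of 1133.

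Sqle, the squalene epoxidase, had the widest error of all 32 genes, at 0.36 ± 0.50 (log2 with SE, from the authors' deposited table), with an interval from -0.63 to 1.35. A difference of 2-fold on the positive side lies within that interval. Msmo1, a sterol methyl oxidase, was at 0.54 ± 0.35, and the cyclase gene Lss at 0.35 ± 0.26 (log2 with SE, from the authors' deposited table). Fdft1, which encodes squalene synthase, was at 0.29 ± 0.23 (log2 with SE, from the authors' deposited table) with a mean normalized count of 765.9. It shares 774 exon bases with Ctsb on the opposite strand, which was at -0.25 ± 0.11 (log2 with SE, from the authors' deposited table) with a mean normalized count of 10453. The kit is stranded per the labels' protocols, but no source used here gives the strand setting of the counting, and reads of that overlap could belong to either gene.

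Tm7sf2, Hsd17b7 and Ebp had the 3 lowest values of the synthesis genes. Tm7sf2, a sterol reductase, was at -0.13 ± 0.16, the ketosteroid reductase gene Hsd17b7 at 0.00 ± 0.26 and the sterol isomerase gene Ebp at 0.07 ± 0.09 (log2 with SE, from the authors' deposited table). Tm7sf2 shares 532 exon bases with Vps51 on the same strand, and reads of that overlap could belong to either gene. Vps51 was at 0.11 ± 0.11 (log2 with SE, from the authors' deposited table) with a mean normalized count of 245.7. The interval of Ebp, from -0.10 to 0.24, was the narrowest of the 32 and excludes a difference as wide as the median of the synthesis genes. Intervals of 9 of the 18 synthesis genes stayed inside a 2-fold difference in either direction, as did those of 21 of all 32 genes.

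**Figure D2:**
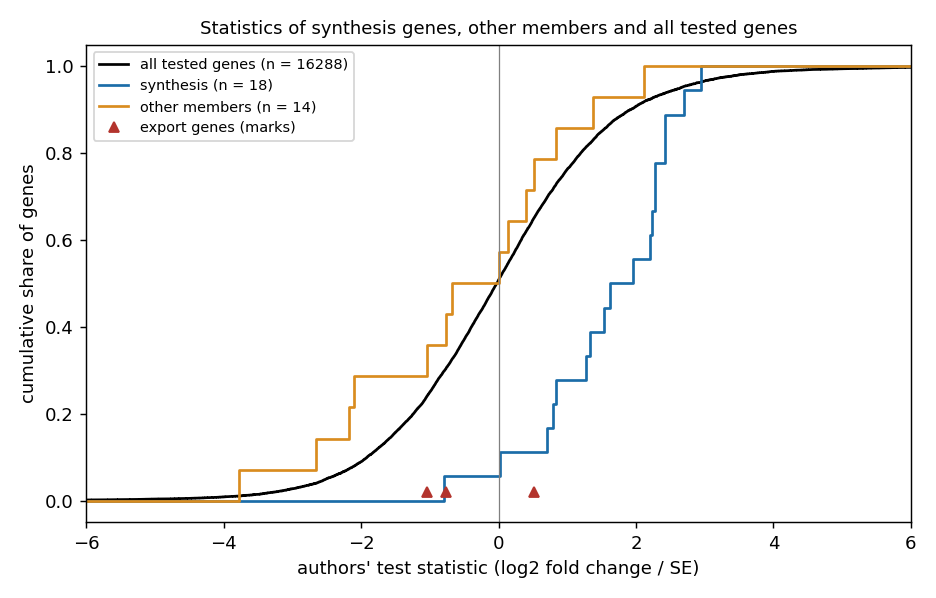
Cumulative share of genes (y axis) by the authors' test statistic, the log2 fold change divided by its SE (x axis), for all 16288 tested genes, the 18 synthesis genes and the 14 other genes described here, with triangles for the 3 export genes. The synthesis curve lies right of the curve of all genes up to its last value, with a median statistic of 1.79 beside -0.026.

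None of the genes that govern SREBP2 was called. Srebf2, which encodes SREBP2, was at 0.00 ± 0.13 (log2 with SE, from the authors' deposited table) with an interval from -0.26 to 0.26, and its escort gene Scap was at -0.12 ± 0.17. Insig1, itself a target of SREBP2, was at 0.52 ± 0.25 (log2 with SE, adjusted p = 0.215, from the authors' deposited table), inside the range of the synthesis genes. Insig2, its paralog, was at 0.15 ± 0.38 (log2 with SE, adjusted p = 0.885, from the authors' deposited table). Whether Insig1 and Insig2 differ from each other was not tested, because the table gives no covariance between genes. Srebf1, the paralog that favours fatty acid synthesis genes, was at 1.41 ± 0.23 (log2 with SE, adjusted p = 5.3e-07, from the authors' deposited table), with an interval from 0.95 to 1.87 that does not overlap that of Srebf2.

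Genes of sterol uptake and transport had 2 of 5 positive and 3 negative values, with a median log2 fold change of -0.26. Npc1, the membrane protein that moves cholesterol out of late endosomes and lysosomes, was at -0.45 ± 0.12 (log2 with SE, from the authors' deposited table), or 1.37-fold higher on the negative side, with an adjusted p of 0.00626. Other adjustments of the authors' p-value for Npc1 ended the call, with adjusted p of 1 by Holm, 0.0643 by Benjamini-Yekutieli and 0.341 with the statistic scaled by its spread over all genes. Npc1 (ENSMUSG00000024413) lies on chromosome 18 from 12189692 to 12236400, minus strand, in GRCm38, with a mean normalized count of 1919. Npc2, the soluble lysosomal partner that hands cholesterol to NPC1, was at -0.26 ± 0.12 (log2 with SE, adjusted p = 0.218, from the authors' deposited table). Npc1 shares 511 exon bases with Rmc1 on the opposite strand, which was at 0.09 ± 0.15 (log2 with SE, from the authors' deposited table).

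Mylip, the LXR-induced ligase that sends lipoprotein receptors to degradation, had the lowest value of the 32 genes, at -0.63 ± 0.24 (log2 with SE, from the authors' deposited table), and was not called (adjusted p = 0.0896). Its mean normalized count was 215.6 and its interval ran from -1.10 to -0.17. Scarb1, the HDL receptor, was at 0.02 ± 0.13 (log2 with SE, from the authors' deposited table) with an interval from -0.24 to 0.28, and Stard4, a cytosolic sterol carrier and SREBP2 target, was at 0.39 ± 0.29 (log2 with SE, adjusted p = 0.486).

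The paralogs that esterify cholesterol lay on different sides of 0. Soat2, the hepatocyte enzyme, was at 0.17 ± 0.20 (log2 with SE, adjusted p = 0.716, from the authors' deposited table), and Soat1, expressed in macrophages among other cells, was at -0.45 ± 0.20 (log2 with SE, adjusted p = 0.197). Neither was called, and their difference was not tested.

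Markers of several cell types had the sign of Npc1, Npc2 and Soat1, and few of them were called. Hepatocytes were among these types, with 9 of 10 markers negative and a median of -0.28, as given below. For Kupffer cells, the macrophages of liver, all 10 listed markers were negative in sign, from -0.76 to -0.33 with a median of -0.49 on the log2 scale in the authors' deposited table, and 1 was called (Timd4, adjusted p = 0.0494). Of these 10, 7 were at an unadjusted p below 0.05 in the authors' test, beside 9.41% of all tested genes on the negative side. Sinusoidal endothelial markers were negative for 8 of 8 tested genes with a median of -0.40, 3 of these at an unadjusted p below 0.05 and 0 called. Of 7 genes that mark recruited macrophages 0 were called (median -0.21). T and NK cell markers had the lowest median of the marker lists, -0.67, with 5 of 7 negative. Of these, 3 were at an unadjusted p below 0.05 in the authors' deposited table, and 0 of the 7 were called. These 7 markers had mean normalized counts from 3.45 to 13.2, and the lowest of all tested genes was 2.95. Of 6 genes that mark neutrophils, 5 were negative and 0 called (median -0.63). The part of these cells in the values of Npc1, Npc2 and Soat1 was not tested, and in whole liver fewer cells of a type and less RNA per cell cannot be told apart.

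Markers of cholangiocytes, the cells of bile ducts, had the sign of the synthesis genes. All 5 tested cholangiocyte markers were positive, from 0.07 to 0.65 with a median log2 fold change of 0.43 beside 0.47 for the synthesis genes, and 0 were called in the authors' deposited table, with 0 at an unadjusted p below 0.05. The higher values were those of Krt7, Krt19 and Epcam, with mean normalized counts of 10.3, 13.2 and 19.2. The better counted Sox9 (214.1) and Spp1 (603.5) were at 0.07 and 0.22. The part of cholangiocytes in the values of the synthesis genes was not tested. Hepatocyte markers were negative for 9 of 10 genes with a median of -0.28, and 2 were called negative (Ass1 and Tat). The medians were -0.0049 for stellate cells, -0.17 for B cells and -0.06 for erythroid cells, with 0 called in the authors' test and 0 at an unadjusted p below 0.05. Of the adipocyte markers 1 was tested, Cfd, which encodes complement factor D, and it was called at 7.93 ± 0.69 (log2 with SE, from the authors' deposited table). Cfd had a mean normalized count of 395.2. The other adipocyte markers Adipoq, Plin1 and Retn had 0.39, 0.44 and 0.56, and Lep was absent, so Cfd alone does not show adipocytes here.

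None of the export genes was called. Abca1, which loads cholesterol onto nascent HDL, was at 0.11 ± 0.21 (log2 with SE, adjusted p = 0.843, from the authors' deposited table) with a mean normalized count of 5464. Abcg5 and Abcg8, neighbours on chromosome 17 on opposite strands that share 82 exon bases, had nearly equal values of -0.24 ± 0.23 and -0.24 ± 0.31 (log2 with SE, from the authors' deposited table), with adjusted p of 0.630 and 0.749. The interval of each of the 3 genes stayed inside a 2-fold difference in either direction.

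Set side by side, the median log2 fold change was 0.47 for the 18 synthesis genes and -0.24 for the 3 export genes, a difference of 0.71. With Mylip added to export, and Srebf2, Insig1 and Stard4 to synthesis, the difference was 0.67. It narrowed to 0.37 when genes were weighted by the authors' SE and to 0.36 where the mean normalized count had to reach 1000 or more, where Abca1 alone stood for export. No test of this difference is given, since genes of 1 comparison are not replicates.

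Neighbouring sterol genes from 5 lists, given by counts and medians, had medians between -0.09 and 0.07, beside 0.47 for the synthesis genes. Of 9 genes of the non-sterol branches, which make ubiquinone, dolichol and protein prenyl groups from mevalonate products, 1 was called positive and 0 negative, with a median log2 fold change of 0.07. The called gene was Coq2, a prenyltransferase of ubiquinone synthesis, at 0.44 ± 0.08 (log2 with SE, adjusted p = 2.3e-06, from the authors' deposited table). Of 12 genes of SREBP processing and sterol-regulated degradation, Srebf1 alone was called, and the median was -0.05. The protease gene Mbtps1, which makes the first SREBP cleavage, was at 0.10 ± 0.10, and Mbtps2, which makes the second, at -0.22 ± 0.09 (log2 with SE, adjusted p = 0.0948, from the authors' deposited table).

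Of 7 lipoprotein and lipid uptake genes, Cd36, a fatty acid transporter and scavenger receptor, was called at 1.43 ± 0.26 (log2 with SE, adjusted p = 7.8e-06, from the authors' deposited table), and the median was -0.03. Of 11 genes of intracellular sterol transport, 0 were called in the authors' test, 1 had an unadjusted p below 0.05 (Gramd1c, a sterol carrier between membranes, at 0.19 ± 0.09) and the median was -0.02. Of 9 LXR genes and targets, Srebf1 again was the 1 called, and the median was -0.09. At an unadjusted p below 0.05 in the authors' test, 1 was positive (Srebf1) and 3 were negative (Nr1h2, Smpdl3a and Scd1). The shares of all tested genes were 9.64% and 9.41%. Smpdl3a was at -0.29 ± 0.14 (log2 with SE, from the authors' deposited table). The receptor genes Nr1h3 and Nr1h2 were at 0.02 ± 0.09 and -0.18 ± 0.07, and the exporter gene Abcg1 at -0.35 ± 0.20 (log2 with SE, adjusted p = 0.326, from the authors' deposited table). Scd1, a desaturase gene that both LXR and SREBP1 induce, was at -1.14 ± 0.47 (log2 with SE, adjusted p = 0.136, from the authors' deposited table), opposite in sign to Srebf1.

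**Figure D3:**
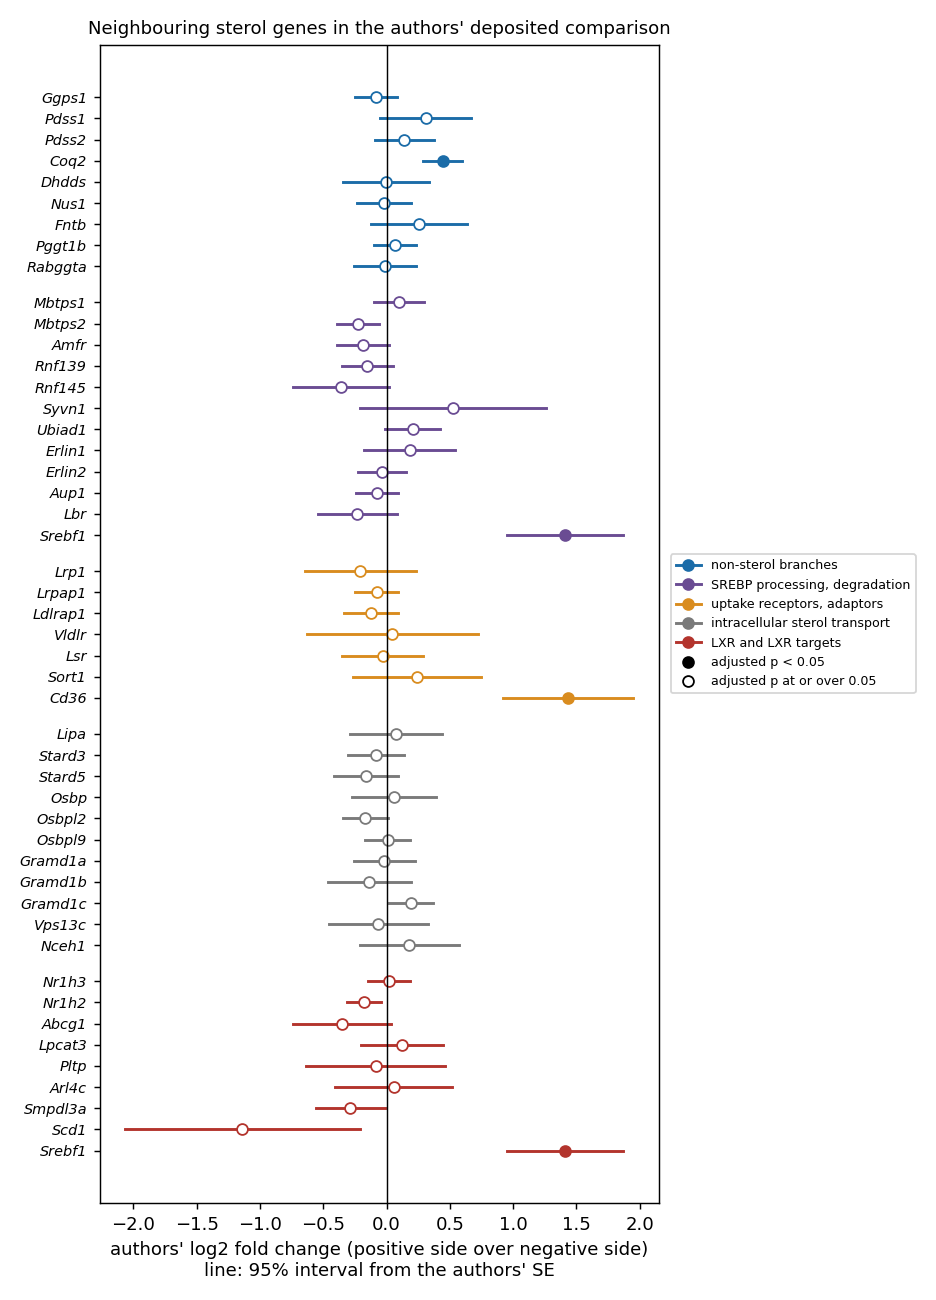
The authors' log2 fold change (x axis) of neighbouring sterol genes (y axis) in 5 lists, with lines for 95% intervals from the authors' SE and filled points for an adjusted p below 0.05. Filled points are Coq2, Cd36 and Srebf1, which stands in 2 lists, and most other points lie near 0.

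Levels of the 32 genes were compared as the authors' mean normalized count per kilobase of the longest protein-coding transcript. In these units 30 of the 32 genes lay above the median of 53.7 over 16269 tested genes with a length, and Idi1 (33.1) lay below it with Soat1, which was lower still. Insig2 was highest at 2240 per kilobase, followed by Ebp at 1928, the HDL receptor gene Scarb1 at 1464 and Tm7sf2 at 1161. Ebp and Tm7sf2, the synthesis genes with the highest levels, were thus among those with log2 fold changes near 0. The mevalonate genes Mvd, Mvk, Fdps and Acat2 were low by comparison, between 120 and 167 per kilobase, and Hmgcs1 stood above them at 632. How reads with several matches were counted is not known, so the levels of Fdps, Acat2 and Idi1, which have near-identical copies, are uncertain to that extent. Among exporters Abca1 was at 532 per kilobase, Abcg5 at 342 and Abcg8 at 214. The hepatocyte esterification gene Soat2 was at 147 per kilobase. The spread of these levels over samples is not given here, so neighbours in this order are not shown to differ.

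**Figure D4:**
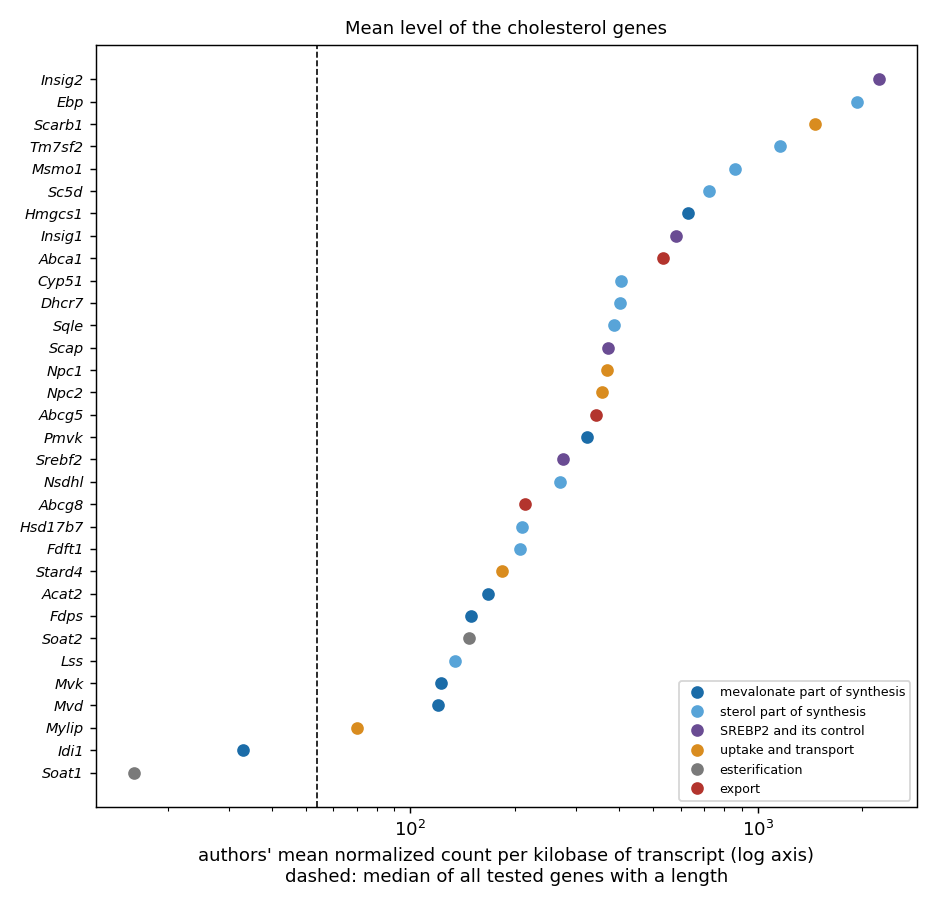
The authors' mean normalized count per kilobase of transcript (x axis, log scale) for the 32 genes (y axis), coloured by role, with a dashed line at the median of tested genes, 53.7. Insig2 and Ebp lie highest, and Idi1 and Soat1 lie left of the line.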

How the data were processed

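Whole liver RNA was prepared with Trizol and a stranded mRNA library kit, per the labels' protocols. The submitters' processing notes name FastQC, Trimmomatic, HISAT2, HTSeq 0.11.1 and GRCm38 without roles. Per the file headers, each row holds the authors' normalized count averaged over libraries (a signal), their log2 fold change and its SE (log2 scale), their statistic (a score), and their p-values before and after adjustment. No source used here gives the model, the samples or the sides of that comparison. The 16 library columns match no label and were not used, so no test between groups could be run. Recomputed to within 1e-06, the statistic was fold change over SE, the p-value its 2-sided normal p, and the adjusted p the Benjamini-Hochberg value over 16288 genes.

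Intervals are 95% normal intervals. Lengths, positions and exon overlaps came from GENCODE M21 (GRCm38), near-identical transcripts from BLAST 2.17.0 (at least 95% identity over 200 bases) and promoters from RefSeq. Python 3.11.15, pandas 2.3.3 and scipy 1.17.1 were used, and the adjustments were tested on simulated statistics. By rule, all 32 genes are named and, of other lists, genes called or with the smallest p. Other genes named were chosen after their values were seen. Members and lists were chosen with earlier results of these data known. Alternatives were other adjustments, thresholds, count minimums, scaled or detrended statistics, and other averages.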

Additional observations from a re-analysis of the deposited data

How the results depend on the processing

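No paired analysis was possible because the library columns carry no sample labels, and for the same reason no replicate could be left out. The summary value of the synthesis genes stayed positive under all 7 alternatives. Their median log2 fold change lay between 0.27 and 0.48 under 4 of them, the mean was 0.47 and the mean weighted by the SE 0.28, and the median of the authors' statistic was 1.79. Fdps, the 1 positive call, was lost (0 calls) with Benjamini-Hochberg over every gene with a p-value (0.0914 for the authors' p-value adjusted so), Holm (1), Benjamini-Yekutieli (0.509), a threshold of 0.01, the statistic scaled by its spread over all genes (median absolute deviation, 0.622) and the statistic with its running median over abundance removed (0.0633). Npc1, the 1 negative call, was lost (0 calls) with Holm (1), Benjamini-Yekutieli (0.0643) and the scaled statistic (0.341). A threshold of 0.10 gave 2 calls on each side, adding Sc5d and Mylip, and the share of all tested genes at that threshold was not computed. An unadjusted p below 0.05 gave 9 positive and 4 negative of the 32 genes, beside 9.64% and 9.41% of all tested genes. Minimums of 10 and 100 on the mean normalized count changed no call. The export median turned positive, to 0.11, once the mean normalized count had to reach 1000, where Abca1 alone is left. The difference between synthesis and export medians was 0.71, and became 0.37 with weights from the SE, 0.40 with values shrunken by a normal prior and 0.36 with that minimum of 1000. Depth per sample is not known here, and precision rests on the authors' SE, which ranged from 0.09 to 0.50 over the 32 genes.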
